A study of Mus musculus with 16 samples.

Results

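The brush border peptidases described here are 9 membrane-bound enzymes of the absorptive cell surface, taken as the genes Anpep, Enpep, Dpp4, Ace, Mme, Mep1a, Mep1b, Tmprss15 and Xpnpep2 by their symbols. Each of the 9 had 1 row among the 21965 genes of the count table. RNAseq was performed on ileum of 16 male mice, with 1 library per mouse. There were 4 pair-fed (PF) WT and 3 EtOH-fed WT mice, and among the transgenic mice 5 were fed EtOH and 4 were PF. WT mice were the littermates of fat-1 mice, which are heterozygous (Fat1+/- in the labels) for a transgene encoding a C. elegans n3 fatty acid desaturase that is expressed in all tissues, and both were on the C57BL/6 background. The mice were 8 to 10 weeks old at the start and received a Lieber-DeCarli liquid diet for 6 weeks, in which the EtOH groups were stepped up to 6% EtOH (v/v) for the final 3 weeks and the PF groups received the same calories from maltose dextrin. The comparisons ask what EtOH changed in each genotype, what the transgene changed on each diet, and whether the EtOH effect differed between genotypes.

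Luminal protein is first cut by pancreatic proteases, and the peptides that remain are trimmed at the microvillus membrane to amino acids and to short peptides that enterocytes take up. Aminopeptidases remove residues from the amino end, dipeptidyl peptidases and dipeptidyl carboxypeptidases release dipeptides from either end, and endopeptidases such as neprilysin and the meprins cut within the chain. Enteropeptidase stands apart from the rest because it activates trypsinogen, and it is known as an enzyme of the duodenum. Several of these enzymes also act on signalling peptides, among them angiotensins and incretins.

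Counted reads per library numbered 8422645 to 11438539. Levels are given as CPM, the counts scaled to a common total over the tested genes with TMM factors, and a floor of detection of 3 reads came to 0.246 to 0.421 CPM. Libraries that stood apart bear on most results below. Replicates 3 and 4 of the fat-1 EtOH group had 11540 and 12450 CPM over 8 large intestine genes, of which 2 and 1 were at 0, against 20.4 to 133 CPM in 13 other libraries and 4431 CPM in WT EtOH replicate 2. Replicates 2 and 4 of the fat-1 PF group had 461 and 404 CPM over 5 ileal bile acid genes, with 7.58 and 3.56 CPM of Slc10a2, the ileal bile acid transporter, which had at least 394 CPM in every other library. Over 11 proximal small intestine genes the same 2 libraries had 52160 and 51440 CPM, against 2036 to 14910 CPM in the other PF libraries and 210 to 609 CPM in the EtOH libraries. The part of these differences in the results was not tested, and the enzymes' differences are given with and without these libraries, while the counts of other gene lists include them. The order of library numbers also followed diet, with PF as numbers 1 to 8 and EtOH as 9 to 16, so that library order and diet cannot be told apart.

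Anpep was the most abundant of the enzymes in every mouse except fat-1 EtOH replicates 3 and 4, where Mep1a was. Compared per kilobase of exon in WT PF mice, the level of Anpep was 2539 ± 86.9 CPM per kb (mean ± SD, n = 4), that of Enpep was 683 ± 76.2 and that of Mep1b was 658 ± 52.2. Mep1a followed at 326 ± 106 CPM per kb, then Dpp4 at 247 ± 24.9, Ace at 246 ± 107, Xpnpep2 at 146 ± 26.3 and Mme at 65.4 ± 28.5. Enpep and Mep1b did not differ beyond the spread of the mice, nor did Mep1a and Dpp4, Dpp4 and Ace, or Ace and Xpnpep2, whose ranges overlapped. In WT EtOH mice Ace, at 83.3 ± 5.86 CPM per kb (n = 3), ranked below Xpnpep2 at 124 to 146 CPM per kb, without overlap. Summed over the 9 genes, the level was 16080 to 22540 CPM in 14 libraries and 1068 and 1227 CPM in fat-1 EtOH replicates 3 and 4. The lowest of the 14 was fat-1 EtOH replicate 5.

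**Figure D1:**
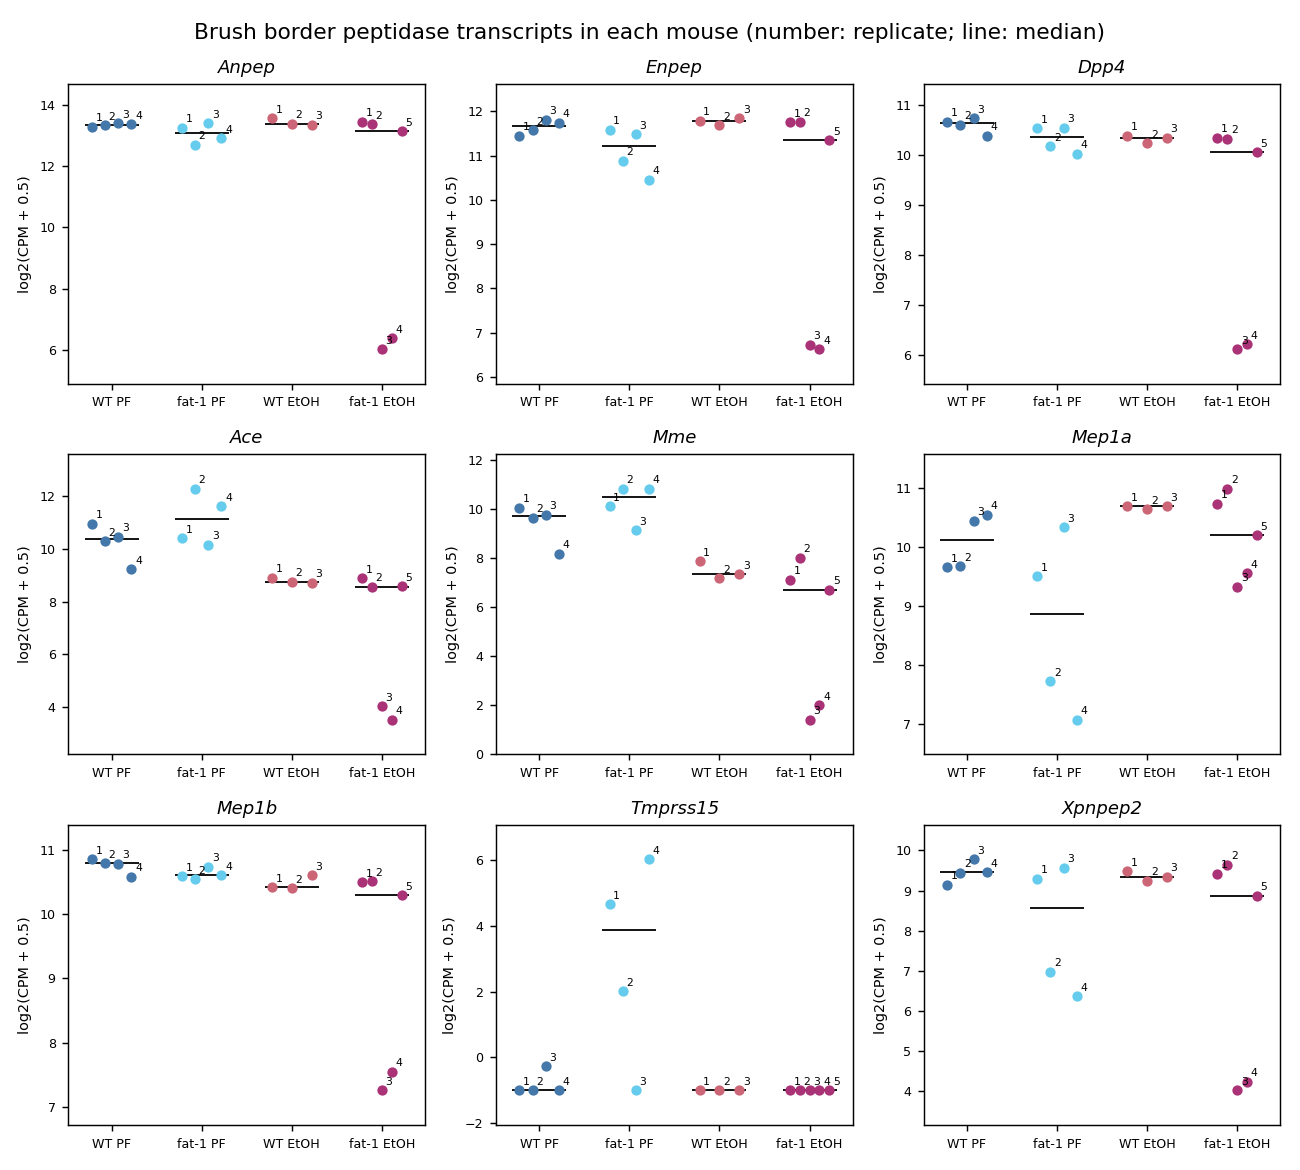
Each panel plots 1 gene as log2(CPM + 0.5) for the 16 mice by group, with the replicate number beside each point and a line at the group median. Ace and Mme lie lower in every EtOH mouse than in any PF mouse, replicates 3 and 4 of fat-1 EtOH are the lowest of their group for 8 genes, and Tmprss15 is above the floor in 3 fat-1 PF mice.

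The promoters of 4 enzymes are shown because they belong to genes with distinct patterns in these libraries: the most abundant enzyme, an enzyme that was lower in all EtOH mice, an enzyme near the middle of the range, and the enzyme detected almost only in fat-1 PF mice. Each is the 250 bases before the RefSeq start on the strand of the gene, in build GRCm38.p6. Capitals mark matches, on either strand, to the cores of motifs of 4 factors known from intestinal epithelium, HNF1, HNF4, CDX and GATA, and no match overlapped another.
Anpep, chr7:79848211-79848460, minus strand: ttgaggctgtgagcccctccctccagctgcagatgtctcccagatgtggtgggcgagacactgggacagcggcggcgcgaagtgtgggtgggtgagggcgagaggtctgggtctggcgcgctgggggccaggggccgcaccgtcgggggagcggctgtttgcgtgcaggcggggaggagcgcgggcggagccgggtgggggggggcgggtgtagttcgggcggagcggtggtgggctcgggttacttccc
Ace, chr11:105967698-105967947, plus strand: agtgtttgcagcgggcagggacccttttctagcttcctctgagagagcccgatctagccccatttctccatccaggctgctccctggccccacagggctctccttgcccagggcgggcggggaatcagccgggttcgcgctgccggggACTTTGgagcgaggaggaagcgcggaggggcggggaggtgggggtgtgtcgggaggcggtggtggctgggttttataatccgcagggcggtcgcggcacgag
Dpp4, chr2:62412232-62412481, minus strand: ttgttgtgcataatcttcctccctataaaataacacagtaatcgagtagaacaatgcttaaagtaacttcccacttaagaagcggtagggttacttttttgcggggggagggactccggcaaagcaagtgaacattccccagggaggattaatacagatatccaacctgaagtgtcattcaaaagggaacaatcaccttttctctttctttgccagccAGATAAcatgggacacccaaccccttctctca
Tmprss15, chr16:79091098-79091347, minus strand: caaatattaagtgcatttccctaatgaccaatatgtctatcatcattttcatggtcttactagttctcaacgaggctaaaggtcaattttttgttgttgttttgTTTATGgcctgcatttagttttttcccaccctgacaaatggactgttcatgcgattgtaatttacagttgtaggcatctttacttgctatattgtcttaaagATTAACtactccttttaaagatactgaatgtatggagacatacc
The Ace window held the HNF4 core on the opposite strand, that of Dpp4 the GATA core, and that of Tmprss15 the CDX core and, on the opposite strand, the HNF1 core. No core was found in the Anpep window, nor in those of Enpep and Xpnpep2. RefSeq listed windows for 8 of the 9 enzymes, 11 in all, and the HNF4 core also stood in the window of Mep1a, in 1 of 3 windows of Mme and in the other window of Ace. Of all 32851 RefSeq windows of this length, 6.43% held the HNF1 core, spelled GTTAAT, and 12.6% held that of HNF4, spelled CAAAGT. The CDX core, spelled TTTATG, stood in 10.8% of the windows, and that of GATA factors, spelled AGATAA, was present in 9.99% of them. These matches describe letters and not binding.

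Ace and Mme were lower in all EtOH mice than in all PF mice. Ace (ENSMUSG00000020681, chr11:105967945-105989964 in GRCm38) encodes angiotensin-converting enzyme, a dipeptidyl carboxypeptidase. It was at 1966, 1236, 1401 and 596 CPM in WT PF replicates 1 to 4 and at 476, 428 and 417 CPM in the WT EtOH mice. In fat-1 PF replicates 1 to 4 Ace was at 1351, 4920, 1141 and 3126 CPM, and in fat-1 EtOH replicates 1 to 5 it was at 471, 378, 15.9, 11.1 and 382 CPM. Thus all 8 EtOH mice were below all 8 PF mice, the lowest PF value being that of WT PF replicate 4, and the highest values were those of the fat-1 PF libraries with few ileal bile acid transcripts.

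Between fat-1 EtOH and fat-1 PF mice Ace fell by 3.39 on the log2 scale (SE 0.90, adjusted p = 0.00976 by the quasi-likelihood test of edgeR, Benjamini-Hochberg adjusted over 13811 genes). Its exact two-sided permutation p was 0.0159, the smallest that 5 against 4 mice allow. The adjusted p over the alternatives lay between 0.000519 and 0.128. Without fat-1 PF replicates 2 and 4 the difference was -2.30 and was not called by edgeR (adjusted p = 0.128), whereas without fat-1 EtOH replicates 3 and 4 it was -2.65 (adjusted p = 0.00298) and without all 4 of these libraries it was -1.59 (adjusted p = 0.019). In WT mice the edgeR difference was -1.56 (SE 1.01, adjusted p = 0.497), with all 3 EtOH mice below the 4 PF mice and an exact permutation p of 0.0571, the smallest possible for 3 against 4 mice.

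Mme (ENSMUSG00000027820, chr3:63241537-63386030) encodes neprilysin, a zinc endopeptidase that cuts small peptides. Its level was 1056, 800, 873 and 288 CPM in WT PF mice and 232, 144 and 160 CPM in WT EtOH mice. The fat-1 PF mice had 1105, 1810, 560 and 1815 CPM of Mme, and the fat-1 EtOH mice had 138, 256, 2.13, 3.48 and 103 CPM. As for Ace, no EtOH mouse reached the lowest PF mouse, which was again WT PF replicate 4, and fat-1 PF replicates 2 and 4 were the highest of all.

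In fat-1 mice Mme fell by 3.72 with EtOH on the log2 scale (SE 1.00, edgeR adjusted p = 0.0104, exact permutation p = 0.0159). Over the alternatives the adjusted p ranged from 0.000558 to 0.0885. The edgeR difference was -3.04 and not called without fat-1 PF replicates 2 and 4 (adjusted p = 0.0885), -2.96 without fat-1 EtOH replicates 3 and 4 (adjusted p = 0.00232), and -2.31 without all 4 (adjusted p = 0.0251). In WT mice Mme differed by -2.08 (SE 1.13), which edgeR did not call (adjusted p = 0.417), and its exact permutation p was 0.0571.

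Averaged over both genotypes, the edgeR log2 difference between EtOH and PF mice was -2.47 for Ace (SE 0.69, adjusted p = 0.0134). For Mme it was -2.90 (SE 0.78, adjusted p = 0.0108). Ace and Mme were 2 of the 9 enzymes, where 17.6% of all tested genes were called lower in the same comparison and 35.9% in either direction. Without fat-1 PF replicates 2 and 4 the mean difference of Ace was -1.92 and was no longer called by edgeR (adjusted p = 0.0701), while Mme, at -2.55, was (adjusted p = 0.0462). Without those and fat-1 EtOH replicates 3 and 4, edgeR called Ace, Mme and Dpp4 lower and Mep1a higher, and 27.6% of all genes. limma voom called Ace and Mme lower and Mep1a higher, and 42.5% of genes. Of the 9 enzymes only Ace and Mme had all EtOH mice below all PF mice, and 4.66% of tested genes did so.

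Tmprss15 (ENSMUSG00000022857, chr16:78953008-79091097) encodes enteropeptidase, the activator of trypsinogen, and its promoter is shown above. It had 234, 25, 0 and 526 reads in fat-1 PF replicates 1 to 4, which was 24.8, 3.51, 0 and 64.6 CPM. In WT PF mice 3 libraries had 0 reads and replicate 3 had 3 reads, and all 8 EtOH libraries had 0 reads. The transcript was therefore detected above the floor in 3 mice, and fat-1 PF replicate 3 had none.

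Against a floor of 3 reads in each library, the mean of 23.2 CPM in fat-1 PF mice was at least 88.5-fold higher than in fat-1 EtOH mice and at least 83.3-fold higher than in WT EtOH mice. Replicate 4 carried most of that mean, and without it the mean was 9.44 CPM and the bounds were 36.0-fold and 33.9-fold. edgeR called Tmprss15 lower in fat-1 EtOH than in fat-1 PF mice (adjusted p = 0.00626, range over the alternatives 0.00176 to 0.108), and limma voom did not (adjusted p = 0.108). Its exact permutation p was 0.0952, since 1 fat-1 PF mouse was at 0 like the EtOH mice. Tmprss15 passed the filter on low counts only through the fat-1 PF mice, so its call is a description of that group. Without fat-1 PF replicates 2 and 4 it did not pass the filter. The 2 libraries with the most Onecut2, a gene of the proximal small intestine, at 45.6 and 74.7 CPM, were fat-1 PF replicates 2 and 4, and replicate 1 came next with 10.9 CPM. The order of Tmprss15 differed, with 24.8 CPM in replicate 1 and 3.51 CPM in replicate 2.

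The meprins differed from each other. Mep1a (ENSMUSG00000023914, chr17:43474324-43502812) encodes the meprin alpha subunit, and Mep1b (ENSMUSG00000024313, chr18:21061923-21100199) encodes the meprin beta subunit. Mep1a was at 808, 817, 1390 and 1491 CPM in WT PF mice and at 1647, 1594 and 1645 CPM in WT EtOH mice. In the fat-1 PF mice it was at 725, 212, 1286 and 135 CPM, and in the fat-1 EtOH mice at 1697, 2025, 642, 752 and 1171 CPM.

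Mep1a was thus higher in each WT EtOH mouse than in any WT PF mouse, and lowest of all in fat-1 PF replicates 2 and 4, where Ace and Mme were highest. The edgeR log2 difference of Mep1a was 0.53 in WT mice (SE 0.61, adjusted p = 0.731, exact permutation p = 0.0571) and 1.09 in fat-1 mice (SE 0.55, adjusted p = 0.129), so neither was called. Without fat-1 PF replicate 3 the difference in fat-1 mice was 1.83 and was called by edgeR (adjusted p = 0.0201). With all libraries limma voom gave a difference of 2.19 (adjusted p = 0.0133). Without fat-1 PF replicates 2 and 4 it was 0.33 (edgeR adjusted p = 0.597), without fat-1 EtOH replicates 3 and 4 it was 1.49 (adjusted p = 0.0744), and without all 4 it was 0.71 (adjusted p = 0.161). The mean over both genotypes was 0.81 (edgeR adjusted p = 0.131), and without fat-1 PF replicate 3 it was 1.18 and was called (adjusted p = 0.0246), whereas without fat-1 PF replicates 2 and 4 it was 0.43 (adjusted p = 0.286).

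Mep1b had the narrowest range of the enzymes, by its highest over its lowest CPM, once fat-1 EtOH replicates 3 and 4 were set aside. It was at 1848, 1768, 1764 and 1530 CPM in WT PF mice, at 1545, 1493, 1706 and 1561 CPM in fat-1 PF mice, and at 1368, 1357 and 1557 CPM in WT EtOH mice. The fat-1 EtOH mice had 1446, 1462, 153, 187 and 1256 CPM of Mep1b. All 5 were below the fat-1 PF mice (exact permutation p = 0.0159), and edgeR did not call the log2 difference of -0.81 (SE 0.52, adjusted p = 0.236). Without fat-1 EtOH replicates 3 and 4 the difference of Mep1b was -0.15 (edgeR adjusted p = 0.312), and without fat-1 PF replicates 2 and 4 it was -0.84 (adjusted p = 0.393). Per length, the reads of Mep1a over those of Mep1b were 0.0655 to 1.05 in 14 libraries, where replicates 2 and 4 of fat-1 PF had 0.108 and 0.0655, and reached 3.19 and 3.06 in fat-1 EtOH replicates 3 and 4.

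**Figure D2:**
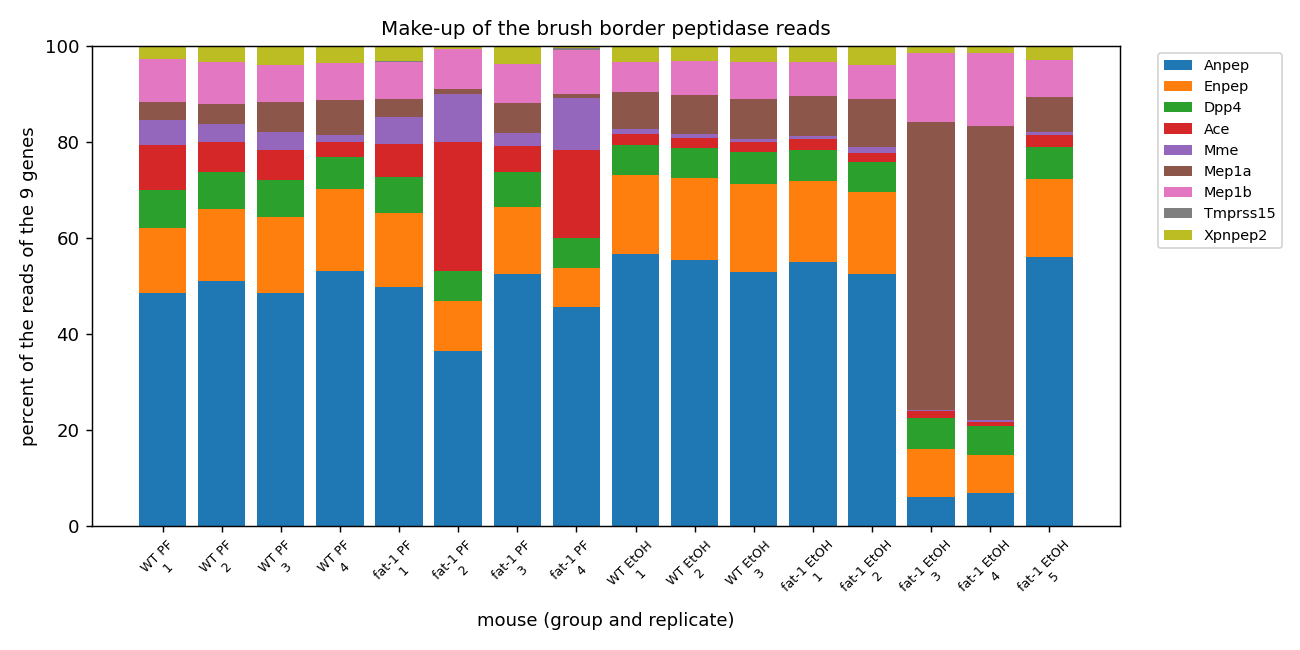
Bars show, for each mouse, the percent of the summed CPM of the 9 enzymes that each gene makes up. Anpep takes 36.5 to 56.7% in 14 mice and 6.04 and 6.80% in fat-1 EtOH replicates 3 and 4, where Mep1a takes 60.1 and 61.3%.

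edgeR called none of the 3 aminopeptidases in any of the 6 comparisons. Of all tested genes it called 37.4% between the fat-1 groups, 35.9% for the mean of both genotypes, and at most 0.0796% in the others. Anpep (ENSMUSG00000039062, chr7:79821803-79861059) encodes aminopeptidase N, which removes neutral residues. Its level was 10082, 10378, 10932 and 10604 CPM in WT PF mice, 9797, 6675, 10876 and 7703 CPM in fat-1 PF mice, and 12157, 10729 and 10555 CPM in WT EtOH mice. The fat-1 EtOH mice had 11229, 10686, 64.5, 83.4 and 9018 CPM. The lowest of replicates 1, 2 and 5 was 108-fold above the higher of replicates 3 and 4, the widest such gap among the enzymes.

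Enpep (ENSMUSG00000028024, chr3:129269175-129332720) encodes aminopeptidase A, which removes acidic residues and trims angiotensin peptides. It was at 2802, 3050, 3597 and 3418 CPM in WT PF mice, at 3067, 1888, 2870 and 1402 CPM in fat-1 PF mice, and at 3529, 3306 and 3672 CPM in WT EtOH mice. In the fat-1 EtOH mice Enpep was at 3437, 3471, 106, 98.5 and 2616 CPM, again low in replicates 3 and 4, and fat-1 PF replicates 2 and 4 were below the other PF mice. The edgeR log2 differences between fat-1 EtOH and fat-1 PF mice were -0.50 for Anpep (SE 0.99, adjusted p = 0.713) and -0.25 for Enpep (SE 0.78, adjusted p = 0.823), and both turned positive, to 0.26 and 0.49, without fat-1 EtOH replicates 3 and 4. Without fat-1 PF replicates 2 and 4 they were -0.72 and -0.60, and without all 4 they were 0.01 and 0.11.

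Xpnpep2 (ENSMUSG00000037005, chrX:48108725-48136981) encodes the membrane-bound aminopeptidase P, which releases a residue that precedes proline. It was at 566, 698, 879 and 707 CPM in WT PF mice, at 627, 126, 758 and 81.99 CPM in fat-1 PF mice, and at 713, 606 and 651 CPM in WT EtOH mice. Its level in the fat-1 EtOH mice was 687, 801, 15.8, 18.4 and 469 CPM. Xpnpep2 was thus low in both pairs of libraries that stood apart, and the edgeR log2 difference between the fat-1 groups was 0.00 (SE 0.93, adjusted p = 0.999), and its sign followed the libraries: it was 0.73 without fat-1 EtOH replicates 3 and 4, -0.79 without fat-1 PF replicates 2 and 4, and -0.07 without all 4.

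Dpp4 (ENSMUSG00000035000, chr2:62330073-62412231) encodes dipeptidyl peptidase 4, which releases dipeptides from the amino end and inactivates incretins. It was at 1627, 1563, 1704 and 1339 CPM in WT PF mice and at 1337, 1210 and 1301 CPM in WT EtOH mice. The fat-1 PF mice had 1485, 1160, 1497 and 1041 CPM and the fat-1 EtOH mice had 1303, 1284, 68.5, 73.3 and 1066 CPM of Dpp4. The WT groups did not overlap, their nearest mice being at 1339 and 1337 CPM, and the edgeR log2 difference was -0.28 (SE 0.77, adjusted p = 0.898). In fat-1 mice the difference was -0.77 (SE 0.67, adjusted p = 0.374), and over both genotypes it was -0.53 (adjusted p = 0.439). Without fat-1 EtOH replicates 3 and 4 these were -0.06 (edgeR adjusted p = 0.772) and -0.17 (adjusted p = 0.229), and without fat-1 PF replicates 2 and 4 they were -0.96 and -0.62. Without all 4 the difference over both genotypes was -0.27 and was called (edgeR adjusted p = 0.0464).

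Taking the enzymes as a group, 3 of the 9 were called in fat-1 EtOH against fat-1 PF mice, all lower, where 37.4% of all tested genes were called in either direction and 18.8% were called lower. Setting aside Tmprss15, which was tested only through the group where it is high, 2 of 8 were called. The median edgeR log2 difference of the 9 enzymes was -0.77, and that of all tested genes was 0.05. Requiring at least 10 counts in every library left 8 enzymes, without Tmprss15, and gave a median of -0.59 against 0.04 for all genes. Without fat-1 EtOH replicates 3 and 4 the median of the enzymes was -0.06, and that of all genes was 0.07. Ace, Mme and Mep1b were the enzymes whose fat-1 groups did not overlap with EtOH lower, a pattern found in 13.4% of tested genes. No enzyme was called without fat-1 PF replicates 2 and 4, where edgeR called 13.9% of genes, Ace and Mme had adjusted p = 0.128 and 0.0885, and Tmprss15 did not pass the filter on low counts. Ace, Mme and Tmprss15 were called by edgeR without fat-1 EtOH replicates 3 and 4, where 30.8% of genes were. With only the 2 fat-1 groups in the fit, Ace and Mme missed the threshold of 0.05 (edgeR adjusted p = 0.0528 and 0.0544), and 23.2% of genes were called. Their differences in that fit were -3.36 (SE 1.09) and -3.69 (SE 1.21), close to those with all libraries.

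**Figure D3:**
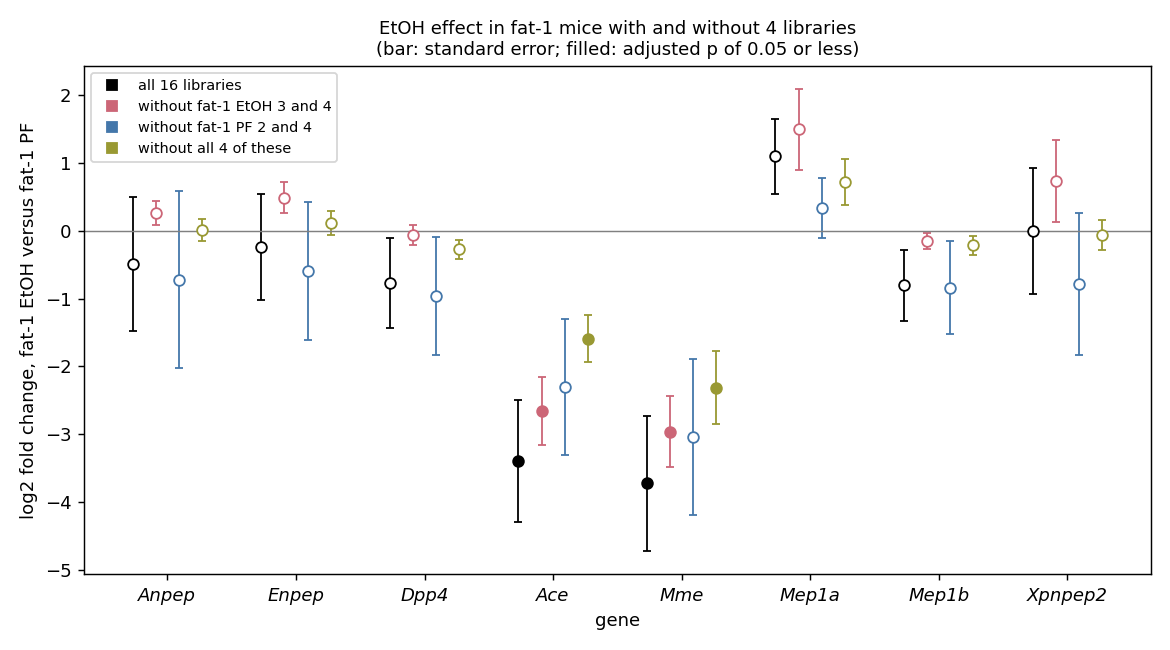
Points are edgeR log2 fold changes of fat-1 EtOH against fat-1 PF mice with bars of 1 standard error, for 8 enzymes and 4 choices of libraries, and filled points have an adjusted p of 0.05 or less. Ace and Mme are below 0 under each choice and unfilled only without fat-1 PF replicates 2 and 4, while Anpep, Enpep and Xpnpep2 lie on either side of 0.

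In WT mice edgeR called none of the 9 enzymes between EtOH and PF, where it called 0.0796% of all tested genes. None had an unadjusted p under 0.05, which 14.1% of genes had, and DESeq2 and limma voom also called 0 enzymes, with 1.86% and 20.7% of genes called. With only the 2 WT groups in the fit, 5 enzymes had an unadjusted p under 0.05, as had 28.3% of genes. These were Dpp4, Ace, Mme, Mep1a and Mep1b. None was called at 0.05 in that fit, which called 8.32% of genes, and the lowest edgeR adjusted p were those of Ace (0.0506) and Mme (0.0508). By level, Dpp4, Ace and Mme were lower in each WT EtOH mouse than in any WT PF mouse, which 12.1% of tested genes were, and Mep1a was higher, which 12.2% were. Smooth muscle genes summed to 1131 to 1512 CPM over the WT PF mice and 2069 to 2719 CPM over the WT EtOH mice, and pericyte genes to 229.6 to 294 CPM and 393.1 to 406.9 CPM, so that neither list overlapped, although edgeR called 0 of 8 and 0 of 5 of these genes in WT mice. Proximal small intestine genes summed to 2036 to 14910 CPM over the WT PF mice and 461.4 to 554.4 CPM over the WT EtOH mice. This list did not overlap either, and edgeR called 2 of its 10 tested genes lower. The part of these lists in the differences of the enzymes was not tested. Without fat-1 EtOH replicates 3 and 4 and fat-1 PF replicates 2 and 4, which share the estimate of the spread, edgeR called 5.68% of genes and 2 enzymes in WT mice: Ace at -1.55 (adjusted p = 0.0205) and Mme at -2.06 (adjusted p = 0.039). Without WT EtOH replicate 2 the WT differences were -1.54 for Ace (edgeR adjusted p = 0.613), -1.94 for Mme (adjusted p = 0.558), -0.24 for Dpp4 and 0.55 for Mep1a.

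Between the PF groups edgeR called none of the enzymes and 0% of all tested genes. Tmprss15 was the enzyme with an unadjusted p under 0.05, which 12.7% of genes had (edgeR adjusted p = 0.187), and it was tested only because of the fat-1 PF mice that express it. DESeq2 and limma voom called 0 enzymes, with 1.37% and 0.217% of genes called. The edgeR log2 differences of fat-1 PF from WT PF were 1.02 for Ace, 0.81 for Mme, -0.94 for Mep1a and -0.84 for Xpnpep2, with adjusted p from 0.529 to 0.794. Without fat-1 PF replicates 2 and 4 these differences were -0.07, 0.14, -0.17 and -0.05 in the same order.

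Between the EtOH groups edgeR called 0 of the 9 enzymes and 0.00724% of tested genes, and no enzyme had an unadjusted p under 0.05, against 4.86% of genes. For the interaction of genotype and diet it called 0 enzymes and 0% of genes, with no enzyme and 8.26% of genes at an unadjusted p under 0.05. The difference between the EtOH effects in fat-1 and WT mice was -1.83 for Ace (SE 1.28, adjusted p = 0.641) and -1.64 for Mme (SE 1.40, adjusted p = 0.693). It was -0.74 and -0.97 without fat-1 PF replicates 2 and 4, -1.09 and -0.89 without fat-1 EtOH replicates 3 and 4, and -0.04 and -0.25 without all 4. DESeq2 and limma voom called 0 enzymes in both comparisons, with 0.0363% and 0.00724% of genes called between the EtOH groups and 0% by both for the interaction.

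Other proteins of peptide digestion gave the setting of these values. Slc15a1, the transporter that takes up dipeptides and tripeptides, was at 461 to 860 CPM in PF mice, at 346.5 to 512.1 CPM in WT EtOH mice, at 335.3 to 534.2 CPM in 3 fat-1 EtOH mice and at 8.37 and 7.76 CPM in fat-1 EtOH replicates 3 and 4. Its edgeR log2 difference was -1.52 in fat-1 mice with those 2 libraries included (adjusted p = 0.174) and -0.75 in WT mice (adjusted p = 0.770). Naaladl1, an aminopeptidase-like surface protein, was at 2289 to 3961 CPM in WT PF mice and at 619 and 354 CPM for replicates 2 and 4 of fat-1 PF, the lowest of the PF mice, as those libraries were for Mep1a and Xpnpep2.

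Of 8 other surface peptidases and partners, 6 were tested, and edgeR called 2 higher and 0 lower in fat-1 EtOH against fat-1 PF mice, where 18.7% of all tested genes were called higher and 18.8% lower. The highest was Cpd, carboxypeptidase D of the secretory pathway, at a log2 difference of 0.80 (adjusted p = 0.00126), and the lowest was Ggt1, gamma-glutamyltransferase, at -1.67 (adjusted p = 0.0838). Of 7 cytosolic peptidases, which finish the peptides taken up, 3 were called lower and 0 higher, set against the same shares of all genes, from Lap3, leucine aminopeptidase, at -1.56 (edgeR adjusted p = 0.0316) to Dpp3 at -0.23 (adjusted p = 0.0912). Of 9 genes of microvillus structure, 4 were called lower and 0 higher, with the lowest at Espn, an actin bundler (-0.95, edgeR adjusted p = 0.0114), and the highest at Eps8 (-0.28, adjusted p = 0.353).

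**Figure D4:**
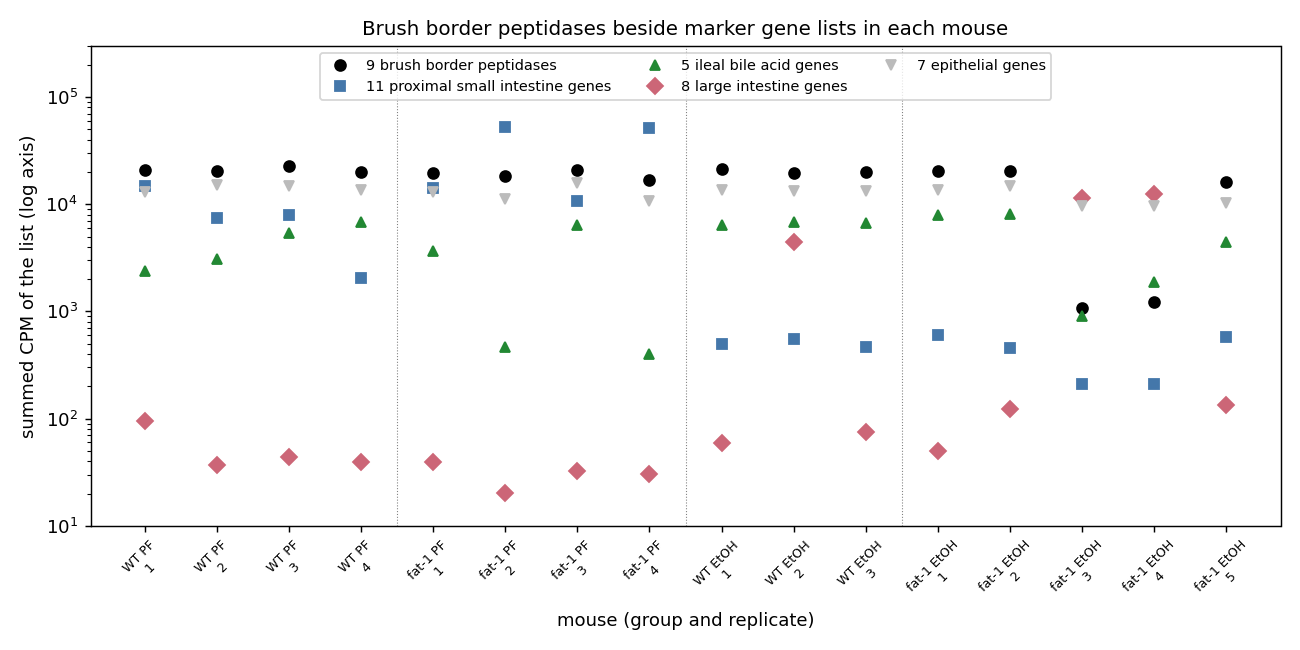
Summed CPM of the 9 enzymes and of 4 marker lists are plotted on a log axis for each mouse. The enzymes lie between 16080 and 22540 CPM except in fat-1 EtOH replicates 3 and 4, where large intestine genes reach 11540 and 12450 CPM, and 52160 and 51440 CPM is the level of proximal genes for replicates 2 and 4 of fat-1 PF.

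Marker genes of other cells were called in the same comparison, in which 18.7% of all genes were called higher and 18.8% lower. The summed level of epithelial genes lay between 10680 and 15740 CPM among fat-1 PF mice and between 9560 and 14890 CPM among fat-1 EtOH mice, with 2 of 7 called higher and 1 lower by edgeR and none at 0. Smooth muscle genes, none at 0, lay between 959 and 1428 CPM among fat-1 PF mice and between 1962 and 4179 CPM among fat-1 EtOH mice, with all 8 called higher. Of 10 tested proximal small intestine genes 8 were called lower and 1 higher, and all 4 tested large intestine genes were called higher. Of 6 fibroblast genes 5 were called higher, as were 4 of 5 pericyte genes, and none of either list was at 0. In fat-1 EtOH replicate 5 genes of B cells summed to 579.6 CPM, against at most 113.9 CPM in any other library, those of T cells to 226.2 CPM against at most 68.98 CPM, those of endothelium to 158.4 CPM against at most 91.56 CPM, and those of macrophages to 335.9 CPM against at most 249.9 CPM. Without that mouse the fat-1 difference was -3.57 for Ace (edgeR adjusted p = 0.0166) and -3.71 for Mme (adjusted p = 0.0232). The part of the other lists in the differences of Ace, Mme and Tmprss15 was not tested. In tissue of mixed cells, fewer cells of a type and less RNA per cell cannot be told apart. WT EtOH replicate 2, with 4041 CPM of the large intestine gene Car1, was the lowest of the 3 WT EtOH mice for Enpep, Dpp4, Mme, Mep1a, Mep1b and Xpnpep2, and lay between the others for Anpep and Ace.

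The genes whose levels followed each enzyme most closely over the 16 libraries were found by the root mean square difference of log2 CPM after centring each gene, a measure that the 4 libraries above weigh on. For Anpep this was Slc6a19, a neutral amino acid transporter, at 0.185 log2 units, where the own spread of Anpep was 2.35. Slc5a12 was closest to Mme at 0.345, and Nat8 (0.405) and Mttp (0.426) were closest to Ace. Apob, the apolipoprotein of chylomicrons, was closest to Mep1b at 0.168, Me3 to Mep1a at 0.271, and Adcy8 to Xpnpep2 at 0.254. Myrfl was closest to both Enpep (0.259) and Dpp4 (0.167). Tmprss15 had no close match, the nearest being Slc6a3 at 1.09. Among the enzymes themselves Enpep and Dpp4 were the closest pair at 0.36, Ace and Mme differed by 0.607, and Mep1a and Mep1b by 1.40.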

How the data were processed

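RNA was taken from a 1.5 cm segment of terminal ileum, and poly(A) stranded libraries were sequenced. The deposited table holds a raw read count for each Ensembl gene. The authors aligned reads to mm10 (GRCm38) by tophat2 and counted them by htseq, and whether counting used strand is not given in the sources used here. Exons of Ace and Dpp4 overlap antisense genes over 5.58% and 3.67% of their length.

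Counts were analysed with edgeR 4.0.16 in R 4.3.3: filterByExpr on the 4 groups kept 13811 genes, libraries were scaled by TMM, and all 16 libraries entered a robust quasi-likelihood fit in which each group had a mean. Standard errors were obtained from the F statistics. Adjusted p are Benjamini-Hochberg over all tested genes, with calls at 0.05, and 6 comparisons were made, of which several share mice. The exact permutation test used mean log2(CPM + 0.5). Over the 36 such tests of the enzymes no Benjamini-Hochberg adjusted p was below 0.19. Positions and exon lengths come from GENCODE M21 and promoters from RefSeq. DESeq2 1.42.0, limma 3.58.1, other scaling and filters, and left-out libraries were alternatives. The fit was also run on simulated counts, and the outcome is not reported here. The enzymes and gene lists, and the genes named from them (the highest and lowest of each list and the closest matches), were chosen with earlier results of these data known. Libraries are from separate mice, and intervals of detection cover counting error only.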

Additional observations from a re-analysis of the deposited data

Results flagged for a closer look

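Of 35 groups of mice tested for a value far from the others, 2 were marked, and chance marks about 1 in 20 such groups. Tmprss15 in WT PF replicate 3, at 0.333 CPM from 3 reads, was above the other 3 WT PF mice, which had no read. Slc15a1 in WT PF replicate 4, at 461 CPM, was below the other WT PF mice at 767 to 791 CPM, and the same mouse had the lowest Ace and Mme of the PF mice.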

How the results depend on the processing

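In fat-1 mice the EtOH comparison gave 3 called enzymes with all libraries and 0 when only the 2 groups entered the fit (Ace -3.36, edgeR adjusted p = 0.0528; Mme -3.69, adjusted p = 0.0544) or without fat-1 PF replicates 2 and 4; leaving out 1 library at a time gave 2 to 4 (2 without fat-1 PF replicate 1, 2 or 4, where Tmprss15 did not pass the filter on low counts and was not tested, and 4 without replicate 3, where Mep1a was called), while 28.5 to 39.4% of all genes were called in these fits and 32.6% without replicate 3. For the mean of both genotypes the count was 2, with 35.9% of all genes called, and became 1 without fat-1 PF replicates 2 and 4, with 23.9%. Leaving out 1 library gave 2 to 3, with 26.9 to 38.1% of genes called. The 3 were without fat-1 PF replicate 3, where 34.3% of genes were called. Without fat-1 PF replicates 2 and 4 and fat-1 EtOH replicates 3 and 4 the count for the mean was 4. These were Ace, Mme and Dpp4 lower and Mep1a higher, where 27.6% of genes were called. In WT mice this choice gave 2, where 5.68% of genes were called. It was made after seeing the data, like that of leaving out fat-1 EtOH replicates 3 and 4 alone. With all libraries limma voom called 3 for the mean, and 42.5% of genes. Between the PF groups leaving out 1 library gave 0 to 1, with 0 to 0.826% of all genes called. The 1 was Tmprss15 without fat-1 PF replicate 3, where 0.826% of genes were called. That was the fat-1 PF mouse without a read of Tmprss15, so that the call follows from the choice.

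Signs turned in fat-1 mice for Anpep (log2 difference 0.26, 0.26 and 0.01) and Enpep (0.48, 0.49 and 0.11) without fat-1 EtOH replicates 3 and 4, with WT EtOH replicate 2, nothing or fat-1 PF replicates 2 and 4 also left out. Leaving out 1 library gave -0.56 to 0.08 for Enpep and -0.42 to 0.53 for Xpnpep2. Xpnpep2, at 0.00, was 0.91 with limma voom, 0.12 with upper-quartile scaling, 0.00 with DESeq2 and with its size factors, 0.02 without a filter and with only the 2 groups, 0.04 with at least 10 counts in every library and 0.73 without fat-1 EtOH replicates 3 and 4, also with WT EtOH replicate 2 left out; it was -0.32 with the replicate block and -0.79 without fat-1 PF replicates 2 and 4. Ace between the PF groups was -0.07 without fat-1 PF replicates 2 and 4, with or without the other pair. The cause of these changes was not tested. Upper-quartile scaling moved the median of all genes in fat-1 mice from 0.05 to 0.20 and the genes called higher from 2578 to 3906, with 1753 in place of 2592 lower.

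No pairing of mice by replicate number was seen. Deviations of same-numbered mice correlated at a mean r of -0.0225 over 21 pairs, against 0.00703 over 74 others. With so few mice per group this check cannot exclude pairing. With the replicate block 3 enzymes were called in fat-1 mice (Ace -4.31, Mme -4.57), where 34.4% of all genes were called. For the mean of both genotypes 35% of genes were called with the block, and no count of called enzymes changed. At this depth levels under 0.246 to 0.421 CPM were not detectable, which limits Tmprss15 alone among the enzymes.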
